A study of Mus musculus with 30 samples.

Results

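Collagens are the secreted proteins that build most of the fibres, networks and basement membranes of connective tissue. The collagen chains described here are the protein-coding mouse genes whose symbol is Col, a number, the letter a and a number. This rule found 44 genes among the 38561 genes of the count table, of which 33 held enough counts to be tested and 11 did not. By the structure their proteins form, the 44 genes were grouped as 11 fibrillar chains, 6 basement membrane chains of type IV, 6 beaded filament chains of type VI, 9 FACIT chains and 12 others. FACIT chains sit on the surface of fibrils and have interrupted helices. The others take in the short-chain, anchoring, multiplexin and transmembrane collagens.

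The cells were adipose-derived stem cells, fibroblast-like progenitors, from the inguinal fat of male C57BL6/J mice of a commercial diet-induced obesity colony. They were sorted as Sca-1+, CD34+, CD31-, CD45- and Ter119-, grown to passage 2 and frozen by mouse, and 1 RNA library was made per mouse. The groups were 6 aged obese, 8 aged lean, 8 young obese and 8 young lean mice. Aged mice were killed at 52 weeks and young mice at 20 weeks, obese mice ate a diet with 60% of its energy from lard-based fat from weaning on, and lean mice ate a control chow. Age in obese mice cannot be told apart from time on that diet. Of 12 mice bought per group, 8 aged obese mice were alive near day 360, so the aged obese libraries come from the mice that lived that long. Mice were housed 4 to 5 to a cage, and cages are not given in the labels.

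Each collagen molecule is a trimer of chains wound around each other, and most types are built from chains of several genes in a fixed proportion. Type I collagen, built from the products of Col1a1 and Col1a2, holds more alpha1 than alpha2 chains and is the main fibril of fat septa, skin and bone. Fat cell progenitors are a main source of the collagens of adipose tissue, where types I and III form fibres, type IV surrounds each fat cell as a basement membrane and type VI links that membrane to the fibres.

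Promoter sequences are shown for chains the results turn on. Col4a1 and Col4a2 are transcribed in opposite directions from a shared promoter on chromosome 8, and their transcript levels moved together between libraries. Col1a2 and Col3a1 are among the 3 chains with the highest levels per length. Col1a2 varied less within groups than Col3a1 (SD of the log2 level 0.36 and 0.83). Col5a3 and Col27a1 passed the test between aged obese and young obese cells. The windows run from 250 bases before to 50 bases after the start of each gene, 5′ to 3′ on the strand of the gene, in RefSeq sequence of build GRCm38.p6. They are chr8:11312777-11313076 on the minus strand for Col4a1, chr8:11312555-11312854 on the plus strand for Col4a2, chr6:4505368-4505667 on the plus strand for Col1a2, chr1:45311288-45311587 on the plus strand for Col3a1, chr9:20815018-20815317 on the minus strand for Col5a3 and chr4:63215162-63215461 on the plus strand for Col27a1. In Col4a1 and Col4a2 the capitals mark the 78 bases that both windows share, and their starts lie 21 bases apart. In the other 4 windows the capitals mark matches to any of 4 motifs or to their reverse complements, namely the TATA box letters TATAAA, the CCAAT box letters, the GC box letters GGGCGG and the AP-1 site letters TGACTCA.
Col4a1: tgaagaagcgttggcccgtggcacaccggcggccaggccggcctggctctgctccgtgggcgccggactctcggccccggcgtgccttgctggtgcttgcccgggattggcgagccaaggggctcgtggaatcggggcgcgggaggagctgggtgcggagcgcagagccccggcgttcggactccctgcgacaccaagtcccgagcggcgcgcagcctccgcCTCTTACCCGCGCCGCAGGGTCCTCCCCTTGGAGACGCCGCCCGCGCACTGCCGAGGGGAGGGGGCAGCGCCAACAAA
Col4a2: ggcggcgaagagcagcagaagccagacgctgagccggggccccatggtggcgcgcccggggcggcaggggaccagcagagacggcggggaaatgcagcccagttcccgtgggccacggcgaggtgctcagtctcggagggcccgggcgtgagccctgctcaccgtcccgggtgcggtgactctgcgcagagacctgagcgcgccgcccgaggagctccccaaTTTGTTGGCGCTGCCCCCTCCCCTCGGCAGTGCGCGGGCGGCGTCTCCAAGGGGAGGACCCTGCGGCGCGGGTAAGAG
Col1a2: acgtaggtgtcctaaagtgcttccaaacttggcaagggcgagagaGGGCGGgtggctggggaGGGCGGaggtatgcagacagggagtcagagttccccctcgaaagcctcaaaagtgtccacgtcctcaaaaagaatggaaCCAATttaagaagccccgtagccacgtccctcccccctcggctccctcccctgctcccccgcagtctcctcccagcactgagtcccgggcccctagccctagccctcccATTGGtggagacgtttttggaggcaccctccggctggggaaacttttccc
Col3a1: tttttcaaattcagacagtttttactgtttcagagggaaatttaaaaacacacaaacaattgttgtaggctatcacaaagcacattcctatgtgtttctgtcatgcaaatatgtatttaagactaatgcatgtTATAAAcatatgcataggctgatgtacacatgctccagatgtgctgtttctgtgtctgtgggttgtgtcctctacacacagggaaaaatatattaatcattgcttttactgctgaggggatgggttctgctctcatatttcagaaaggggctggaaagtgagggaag
Col5a3: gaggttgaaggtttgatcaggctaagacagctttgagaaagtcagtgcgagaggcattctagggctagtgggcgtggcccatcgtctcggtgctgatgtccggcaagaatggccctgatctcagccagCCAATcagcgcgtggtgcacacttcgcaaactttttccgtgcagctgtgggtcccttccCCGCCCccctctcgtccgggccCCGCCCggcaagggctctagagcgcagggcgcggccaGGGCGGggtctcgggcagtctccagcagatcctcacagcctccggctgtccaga
Col27a1: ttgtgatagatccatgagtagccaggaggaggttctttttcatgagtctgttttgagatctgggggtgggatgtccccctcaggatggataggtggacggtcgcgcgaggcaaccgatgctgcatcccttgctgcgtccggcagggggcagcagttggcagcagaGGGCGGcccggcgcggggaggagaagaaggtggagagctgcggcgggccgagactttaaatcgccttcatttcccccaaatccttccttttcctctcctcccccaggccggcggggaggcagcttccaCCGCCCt

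The RefSeq table had a window for 35 of the 44 collagen genes, 38 windows in all because some genes have several starts, and each motif was searched on both strands, with overlapping matches of different motifs counted for each. GGGCGG was in 23 of the 38 collagen windows (60.5%), against 35.7% of the 32851 windows of all genes. CCAAT was in 13 collagen windows (34.2%, against 37.4% of all), TATAAA in 5 (13.2%, against 13.6%) and TGACTCA in 1, that of Col6a1 (2.63%, against 5.2%). The collagen windows had a median GC content of 59.9%, against 52.7% over all windows. Of the 6 windows shown, Col3a1 had the lowest GC content (37.7%) and was the only one of the 6 with TATAAA, and Col4a1 had the highest (74.0%). A match describes the letters of the window and was not tested as a binding site.

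Sequenced reads were counted per gene, with 30597765 to 47970233 counts in genes per library, and levels are given as CPM, the counts of a gene scaled to a common library size. Markers of the sorted progenitors were present in all groups, with a summed level of 6 markers of 1031 to 2444 CPM in aged obese, 1730 to 2457 in aged lean, 1737 to 1962 in young obese and 1670 to 2607 in young lean libraries. Most of the sum was Ly6a and Thy1. The lowest levels of Cd34, Pi16 and Dpp4 were 0.193, 0.128 and 0.0642 CPM, all in aged obese libraries. Aged obese 10 and 12 stood apart from the other aged obese libraries in the sorted markers, with 176 and 362 CPM of Ly6a (Sca-1) while aged obese 14, 15, 16 and 17 had 917 to 1019 CPM, and with 0.193 and 0.732 CPM of Cd34 while those 4 had 9.67 to 38.0 CPM. Cd34 was also low in other groups, with a lowest level of 0.912 CPM in young obese (median 2.06) and 1.07 CPM in aged lean libraries. Young obese 1 and 2 stood above the remaining young obese libraries in several collagens given below. Several of the results that rest on these 4 libraries are given with and without them. The immune marker Ptprc (CD45) had at most 0.029 CPM and the endothelial marker Pecam1 (CD31) at most 0.278 CPM in any library. In bulk RNA, fewer cells with a transcript and less transcript per cell cannot be told apart.

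Collagen transcripts took a large part of all counts. The 44 genes held 6.40% to 10.2% of the counts in aged obese (median 8.89%), 4.95% to 8.96% in aged lean (7.35%), 3.60% to 10.4% in young obese (7.69%) and 5.87% to 8.50% in young lean libraries (7.37%). The groups overlapped widely. Per kilobase of transcript, the median over the 30 libraries was highest for Col1a1 (5139.5 CPM per kilobase), then Col1a2 (3260), Col3a1 (1543), Col5a2 (710.2) and Col5a1 (501), which are all fibrillar. The type VI chains Col6a1 (372) and Col6a2 (257) followed, with Col4a1 (243), the FACIT chain Col12a1 (179.8) and Col4a2 (174). Of the 33 tested chains, 4 (Col6a4, Col9a3, Col17a1 and Col23a1) had a median over all libraries under 1 CPM.

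**Figure D1:**
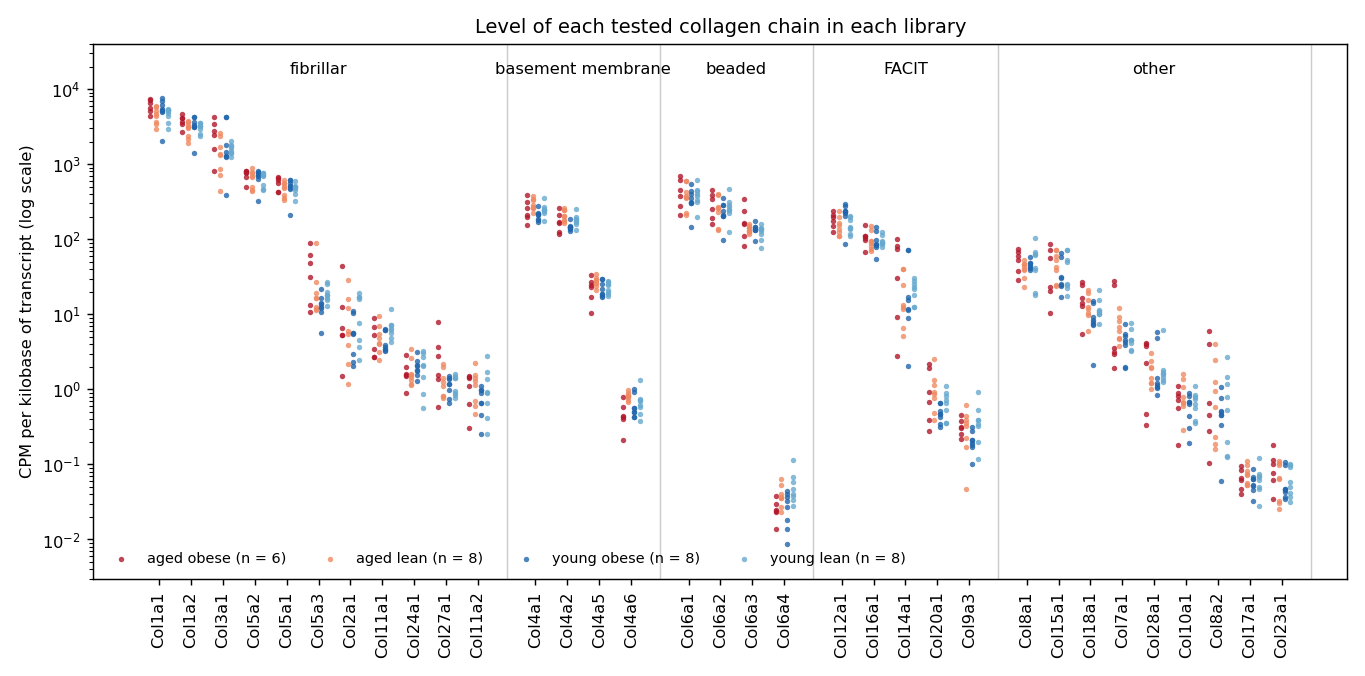
CPM per kilobase of transcript (log scale) of the 33 tested collagen chains, grouped by class, with 1 point per library and colours for the 4 groups. Col1a1 stands highest in median (5139.5 CPM per kilobase) and Col6a4 lowest (0.0353), and within each chain the 4 groups overlap.

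The 11 chains that were not tested had at most 0.534 CPM in any library. They were the type IV chains Col4a3 and Col4a4 of kidney and other specialised basement membranes, the type VI chains Col6a5 and Col6a6, the FACIT chains Col9a1, Col9a2, Col19a1 and Col22a1, and Col13a1, Col25a1 and Col26a1. Col9a1, a chain of cartilage fibrils, had 0 counts in all 30 libraries. A count of 0 allows up to 3 counts, 0.0625 to 0.098 CPM depending on the library, and this limit covers counting error only.

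Among fibrillar chains, Col1a1 had 26333, 36135 and 44004 CPM in aged obese libraries (lowest, median and highest), 17461, 27200 and 34989 CPM in aged lean, 12155, 32022 and 44931 CPM in young obese and 17558, 29457 and 32047 CPM in young lean libraries. The ranges overlap in every pairing of groups, and the lowest library of all was young obese 22. Col1a2 had 14363, 20778 and 24593 CPM in aged obese, 10205, 16340 and 19981 CPM in aged lean, 7454, 17555 and 22937 CPM in young obese and 12561, 17203 and 18886 CPM in young lean libraries. Young obese 22 was again the lowest of the 30 libraries, and aged obese 12 was the highest. Col1a1 differed by 0.43 ± 0.21 (log2 ± SE here and below) between aged obese and aged lean cells (adjusted p = 0.39 in edgeR's quasi-likelihood test) and Col1a2 by 0.37 ± 0.19 (adjusted p = 0.396), and neither passed in any comparison in edgeR.

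Col5a1 and Col5a2 encode type V chains, which are built into type I fibrils and limit their width. Col5a1 had 3627 to 5630 CPM in aged obese (median 4956), 2784 to 5119 in aged lean (4130), 1787 to 5211 in young obese (4338) and 2751 to 4972 in young lean libraries (4139). Col5a2 had 3323 to 5435 CPM in aged obese (median 5175), 2908 to 5908 in aged lean (4571), 2173 to 5393 in young obese (4705) and 2959 to 5029 in young lean libraries (4648). Both overlapped between all groups. Their log2 differences lay between 0.00 and 0.25 for Col5a1 and between 0.03 and 0.20 for Col5a2 over the 5 comparisons of 2 groups, and none passed.

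Col5a3, which encodes the less abundant alpha3 chain of type V collagen, was the fibrillar chain with the largest difference between aged obese and young obese cells. It had 194, 296, 65.3, 375, 81.7 and 544 CPM in aged obese 10, 12, 14, 15, 16 and 17, and 34.4 to 135 CPM in the 8 young obese libraries (median 81.0). Aged obese 10, 12, 15 and 17 lie above every young obese library, and aged obese 14 and 16 lie within their range. It had 69.6 to 551 CPM in aged lean (median 102), where aged lean 16 stood alone at 551 and the next library had 164 CPM, and 78.2 to 164 CPM in young lean libraries (median 111).

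Col27a1 encodes a fibrillar chain known from cartilage. It had 11.8, 21.2, 10.4, 59.5, 4.43 and 27.6 CPM in aged obese 10, 12, 14, 15, 16 and 17. The 8 young obese libraries had 4.98 to 11.4 CPM (median 8.94). Aged obese 10, 12, 15 and 17 again exceeded every young obese library, and aged obese 16 was below all of them. It had 5.82 to 16.4 CPM in aged lean (median 8.99) and 5.92 to 12.2 CPM in young lean libraries (median 9.05).

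**Figure D2:**
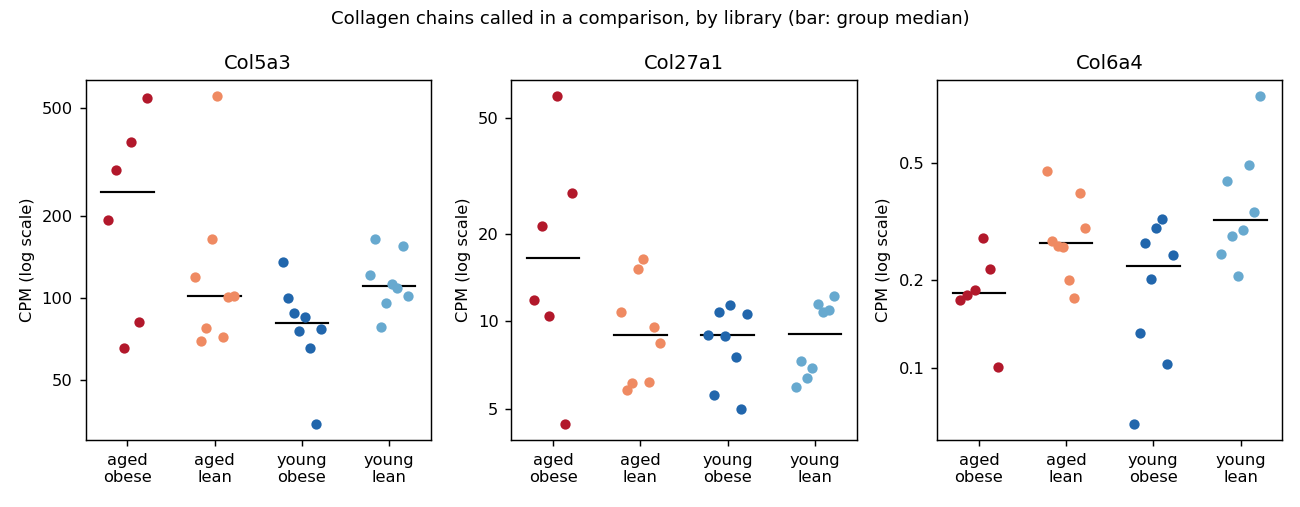
CPM (log scale) of Col5a3, Col27a1 and Col6a4 in each library, by group, with a bar at the group median. Median Col5a3 is 245 CPM in aged obese, 102 in aged lean, 81.0 in young obese and 111 in young lean libraries, and the groups overlap for all 3 chains.

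Of the other fibrillar chains, Col2a1, the main collagen of cartilage, varied most between libraries of a group. It had 7.58, 30.5 and 227 CPM in aged obese (lowest, median and highest), 6.01, 29.2 and 148 CPM in aged lean, 10.6, 28.4 and 56.3 CPM in young obese and 12.4, 60.6 and 97.1 CPM in young lean libraries. The SD of its log2 CPM within groups was 1.31, above that of 99.2% of tested genes. Of 6 chondrocyte markers, Acan, Hapln1 and Matn1 had group medians under 0.1 CPM in all 4 groups and at most 0.151 CPM in any library, while Comp and Sox9 were present. The 6 together summed to 18.5 to 440 CPM in aged obese, 22.3 to 112 in aged lean, 20.4 to 105 in young obese and 31.2 to 100.2 in young lean libraries, and their part in the Col2a1 and Col27a1 levels was not tested.

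Col3a1, the chain of type III fibres, was named after its values were seen. It had 23997 and 23484 CPM in young obese 1 and 2 and 2186 to 9922 CPM in young obese 18 to 23. Its range was 4484 to 23872 CPM in aged obese, 2450 to 14378 CPM in aged lean and 6917 to 11192 CPM in young lean libraries. Young obese 1 and 2 were about level with the highest aged obese library and above every lean library. Col11a1, Col11a2 and Col24a1 had at most 89.4, 16.7 and 24.8 CPM in any library and passed in no comparison in edgeR. Col3a1 did not pass in edgeR either, and with limma voom and library quality weights it was 0.99 ± 0.34 higher in aged obese than in young obese cells (adjusted p = 0.0395).

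The basement membrane chains Col4a1 and Col4a2, which form the type IV network found under most epithelia and around fat cells, had the smallest spread within groups of the 33 tested chains (SD of log2 CPM 0.30 and 0.28). Col4a1 had 1035 to 2553 CPM in aged obese (median 1560), 1497 to 2479 in aged lean (1829), 1123 to 1843 in young obese (1399) and 1157 to 2314 in young lean libraries (1609). Col4a2 had 764 to 1691 CPM in aged obese (median 1088), 1073 to 1691 in aged lean (1326), 834 to 1201 in young obese (935) and 867 to 1629 in young lean libraries (1162). All groups overlapped, and the median of both chains was lowest in young obese and highest in aged lean libraries. In young obese against young lean cells the difference was -0.25 ± 0.15 for Col4a1 (adjusted p = 0.285) and -0.31 ± 0.14 for Col4a2 (adjusted p = 0.142), with 7 of 8 young obese libraries below the young lean median for each. The X-linked chains Col4a5 and Col4a6 had medians over all libraries of 163 and 4.31 CPM and did not pass in edgeR. Col4a5 passed in limma voom in young obese against young lean cells (-0.27 ± 0.10, adjusted p = 0.0425). Col4a6 passed in the fit corrected for GC content and length, at -0.86 ± 0.21 in aged obese against aged lean cells (adjusted p = 0.0458) and at -0.65 ± 0.20 in aged obese against young lean cells (adjusted p = 0.0382).

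Type VI collagen is assembled from the products of Col6a1, Col6a2 and Col6a3 into beaded filaments. Col6a1 had 876 to 2816 CPM in aged obese (median 1705), 856 to 2430 in aged lean (1520), 590 to 2212 in young obese (1367) and 822 to 2531 in young lean libraries (1579). Col6a2 had 745 to 2105 CPM in aged obese (median 1403), 626 to 1861 in aged lean (1212), 451 to 1627 in young obese (1048) and 586 to 2151 in young lean libraries (1209). Col6a3, whose chain carries the peptide known as endotrophin at its end, had 828 to 3495 CPM in aged obese (median 1631), 1190 to 1621 in aged lean (1369), 953 to 1780 in young obese (1388) and 781 to 1627 in young lean libraries (1345). The groups overlapped for all 3 chains. Aged obese 10 and 12 had the 2 highest Col6a3 values of all 30 libraries, 2429 and 3495 CPM.

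Col6a4, a further type VI chain, was near the limit of counting, with 2 to 33 counts per library. It had 0.101, 0.180 and 0.278 CPM in aged obese (lowest, median and highest), 0.173, 0.266 and 0.470 CPM in aged lean, 0.0643, 0.222 and 0.323 CPM in young obese and 0.206, 0.319 and 0.848 CPM in young lean libraries. The aged obese and young lean ranges overlap, though all 6 aged obese libraries are below the young lean median. Of its exon bases in the GENCODE M21 annotation, 3.4% overlap genes on the opposite strand, and whether the counting used strand is not given in the sources used here.

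Among FACIT chains, Col12a1 and Col16a1 were the most abundant per length. Col12a1, known from tendon and fascia, had 1417 to 2731 CPM in aged obese (median 2160), 1254 to 2774 in aged lean (1661), 1008 to 3371 in young obese (2668) and 1253 to 2365 in young lean libraries (1670). Its difference between young obese and young lean cells was 0.53 ± 0.20 (adjusted p = 0.0831), with 7 of 8 young obese libraries above the young lean median, and it passed without young obese 22, the lowest library, at 0.65 ± 0.17 (adjusted p = 0.0317). Col16a1 had 350 to 802 CPM in aged obese (median 553), 358 to 772 in aged lean (478), 283 to 770 in young obese (444) and 411 to 656 in young lean libraries (476), and it passed in no comparison in edgeR.

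Col14a1, which encodes a FACIT chain of fibril surfaces, differed widely between libraries of a group (SD of log2 CPM 1.40, above 99.4% of tested genes). It had 17.9, 59.4, 476, 521, 196 and 653 CPM in aged obese 10, 12, 14, 15, 16 and 17, and 33.1 to 262 CPM in aged lean libraries (median 83.2). It had 465 and 468 CPM in young obese 1 and 2 and 13.2 to 111 CPM in young obese 18 to 23, and 80.4 to 199 CPM in young lean libraries (median 144). Aged obese 10 and 12 were thus below, and aged obese 14, 15 and 17 above, every young lean library. Between aged obese and aged lean cells Col14a1 differed by 1.36 ± 0.64 (adjusted p = 0.375). Against young obese cells it differed by 0.91 ± 0.64 (adjusted p = 0.468), which was 1.44 ± 0.61 without aged obese 10 and 12 (adjusted p = 0.092). It passed there without young obese 1 and 2, at 2.15 ± 0.62 (adjusted p = 0.0454). With all libraries kept it passed there in limma voom with quality weights (1.88 ± 0.53, adjusted p = 0.0163). Col20a1 and Col9a3 had at most 12.6 and 2.81 CPM.

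Among the other collagens, Col8a1, a short-chain network collagen of vessel walls and the cornea, had 147 to 378 CPM in aged obese (median 288), 119 to 267 in aged lean (215), 199 to 296 in young obese (227) and 93.1 to 533 in young lean libraries (261). Col15a1, a multiplexin of the zone beneath basement membranes, had 53.9 to 441 CPM in aged obese (median 206), 125 to 372 in aged lean (248), 88.7 to 339 in young obese (145) and 91.8 to 376 in young lean libraries (197). Neither separated any groups. Col8a2, the partner of Col8a1, was the most variable collagen (SD of log2 CPM within groups 1.63, above 99.7% of tested genes), with 0.450 to 25.6 CPM in aged obese (median 2.44), 0.704 to 17.4 in aged lean (3.34), 0.258 to 4.60 in young obese (2.09) and 0.545 to 11.6 in young lean libraries (2.85). Its 2 highest values, 25.6 and 17.5 CPM, were in aged obese 15 and 14.

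Col7a1, the anchoring fibril chain of skin, and Col28a1 were named after their values were seen. Col7a1 had 228 and 256 CPM in aged obese 10 and 12 and 17.9 to 32.6 CPM in aged obese 14 to 17, with 34.7 to 113 CPM in aged lean, 17.8 to 68.9 in young obese and 30 to 70.1 in young lean libraries. Col28a1 had 1.41 and 1.97 CPM in aged obese 10 and 12 and 9.45 to 17.5 CPM in aged obese 14 to 17, and 24.8 and 20.6 CPM in young obese 1 and 2 and 3.61 to 6.03 CPM in young obese 18 to 23. Aged obese 10 and 12, which stood apart in the sorted markers, thus also stood apart in these chains, and the part of those markers in them was not tested. Neither chain passed in edgeR with all libraries. Col7a1 was 1.3 ± 0.46 higher in aged obese than in young obese cells (adjusted p = 0.106) and 1.15 ± 0.46 higher than in young lean cells (adjusted p = 0.097), and without aged obese 10 and 12 both estimates were negative, at -0.57 ± 0.32 (adjusted p = 0.198) and -0.71 ± 0.32 (adjusted p = 0.127). Against aged lean cells it was at 0.61 ± 0.46, which did not pass, and at -1.26 ± 0.33 without those 2 libraries (adjusted p = 0.105). With them kept, Col7a1 passed without aged obese 16 (1.52 ± 0.44 against young obese cells, adjusted p = 0.0322, and 1.37 ± 0.44 against young lean cells, adjusted p = 0.0315). Col28a1 passed in limma voom for aged obese against young obese cells (1.04 ± 0.35, adjusted p = 0.0344).

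**Figure D3:**
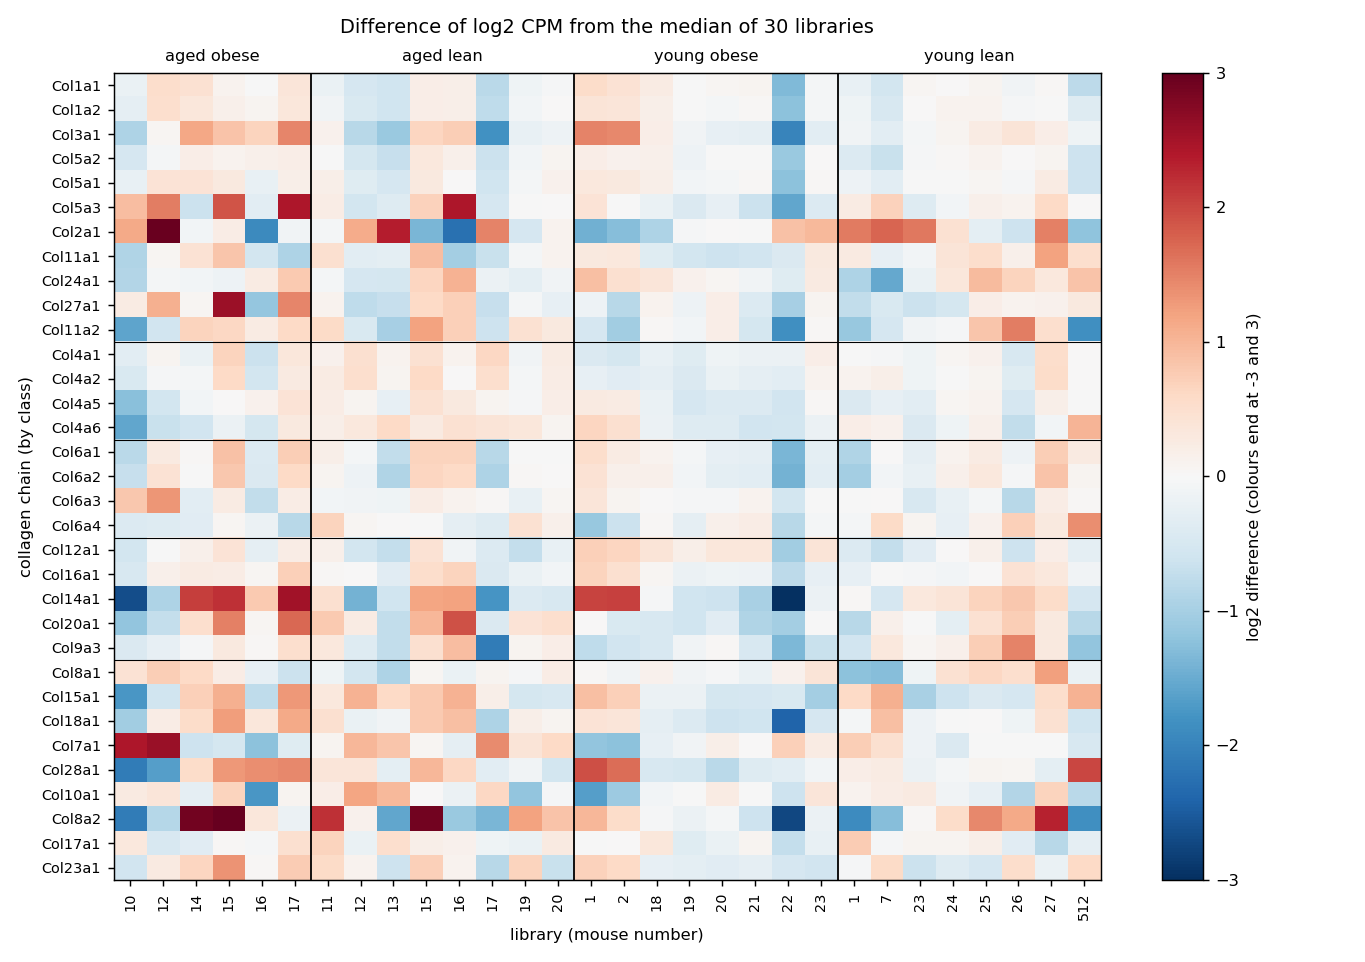
Difference of log2 CPM from the median of all 30 libraries for each tested chain (rows, by class) in each library (columns, labelled by mouse number, by group), with colours ending at -3 and 3. Young obese 22 is low in most chains (lowest of its group in 21 of 33), and aged obese 10 and 12 differ from the other aged obese libraries in Col7a1, Col14a1 and Col28a1.

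Many chains shared the same extreme library. Young obese 22 was the lowest of its group in 21 of 33 chains, against 25% of all tested genes, and young obese 1 the highest in 20 of 33, against 20.2%. Aged obese 10 was the lowest of its group in 20 of 33 chains, against 25.5% of all tested genes, while aged obese 17 was the highest in 13 (17% of all) and aged obese 15 in 12 (17.6%). Aged lean 15 was the highest of its group in 15 chains (16.8% of all) and young lean 27 in 12 (5.46%). These counts describe the libraries, and chains of a library are not independent of each other.

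Of the chains that share a trimer, Col6a1 with Col6a2, Col1a1 with Col1a2 and Col4a1 with Col4a2 kept a steady ratio across libraries within groups. The ratios of Col6a3 to Col6a1 and of Col8a1 to Col8a2 varied more. The log2 ratio of Col6a1 to Col6a2 had an SD within groups of 0.09, against 0.56 and 0.57 for the log2 levels of the chains themselves. For Col1a1 to Col1a2 it was 0.09, against 0.41 and 0.36, and for Col4a1 to Col4a2 0.11, against 0.30 and 0.28. Of the 528 pairs of tested chains, these were the 3 with the smallest SD of the ratio, and Col5a1 with Col5a2 (SD 0.17) came 7th, after Col5a1 with Col1a2, Col1a1 with Col5a1 and Col5a2 with Col1a2. Levels of a library share its depth and scaling, so this is a description with no test.

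Per kilobase, the median ratio of Col1a1 to Col1a2 was 1.61 in aged obese (1.47 to 1.71), 1.54 in aged lean (1.48 to 1.58), 1.65 in young obese (1.47 to 1.77) and 1.5 in young lean libraries (1.19 to 1.63). That of Col4a1 to Col4a2 was 1.48 in aged obese, 1.39 in aged lean, 1.46 in young obese and 1.39 in young lean libraries. That of Col6a1 to Col6a2 was 1.48 in aged obese, 1.53 in aged lean, 1.49 in young obese and 1.40 in young lean libraries. In all 3 pairs the ranges of the 4 groups overlapped. Col4a1 and Col4a2, whose shared promoter is printed above, overlap by 22 exon bases on opposite strands, a small part of either transcript.

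The log2 ratio of Col6a3 to Col6a1 had an SD within groups of 0.57, more than that of Col6a3 alone (0.40) and about that of Col6a1 (0.56). Per kilobase the median ratio was 0.290 in aged obese, 0.339 in aged lean, 0.405 in young obese and 0.306 in young lean libraries, with lowest values from 0.233 to 0.326, and the groups overlapped. The log2 ratio of Col8a1 to Col8a2 had an SD of 1.46, between those of Col8a1 alone (0.56) and Col8a2 alone (1.63). Its ratios per kilobase were 8.82 to 477 in aged obese (median 57.0) and 11.4 to 224 in aged lean libraries (51.8). They were 42.0 to 590 in young obese (88.7) and 38.8 to 252 in young lean libraries (74.8).

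**Figure D4:**
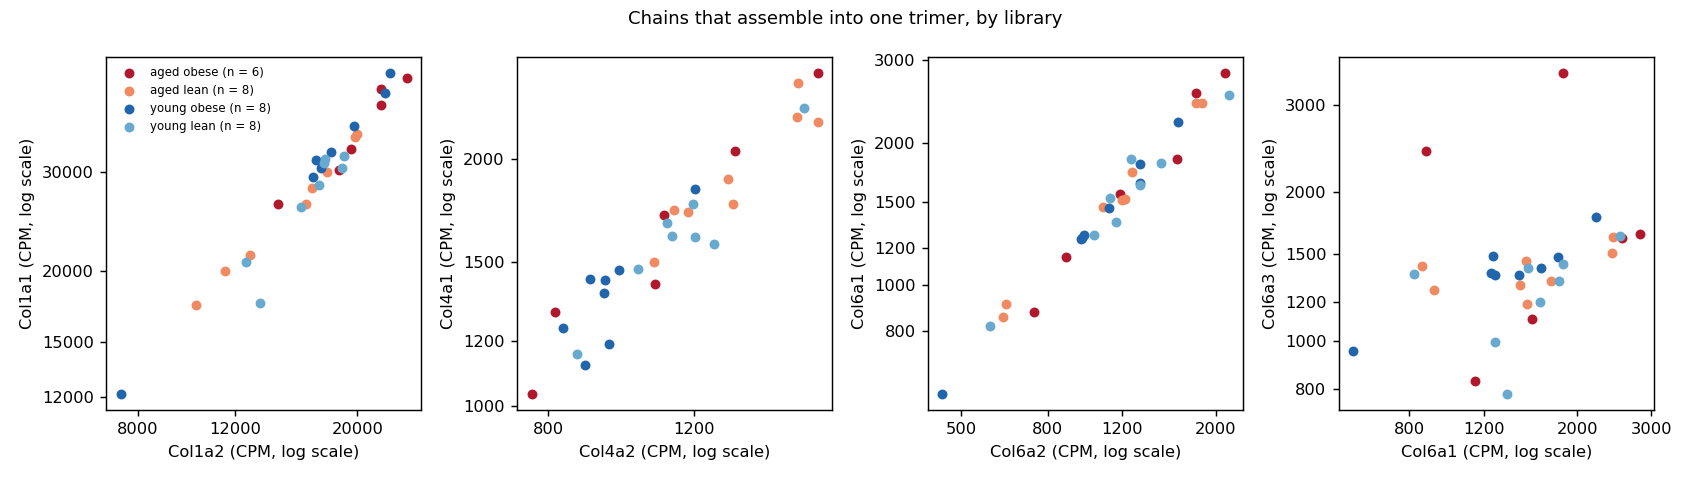
CPM (log scales) of chains of the same trimer against each other, with 1 point per library coloured by group. Col1a1 with Col1a2, Col4a1 with Col4a2 and Col6a1 with Col6a2 lie along a line (SD of the log2 ratio within groups 0.09 to 0.11), and Col6a3 with Col6a1 scatters (SD 0.57).

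The comparison of aged obese with young obese cells asks how age, together with a longer time on the diet, goes with collagen expression. Col5a3 and Col27a1 rose and no chain fell, so 2 of 33 tested chains passed an adjusted p of 0.05 in edgeR's quasi-likelihood test, against 3.07% of all 14438 tested genes in either direction and 1.87% higher. Col5a3 was 1.65 ± 0.43 higher, 3.14-fold (adjusted p = 0.0345), and Col27a1 1.39 ± 0.36 higher, 2.61-fold (adjusted p = 0.0351), and for each 5 of 6 aged obese libraries exceeded the young obese median. The estimates of 29 of the 33 chains were positive, with a median of 0.30, against 7472 of all tested genes and a median of 0.01. By class the medians were 0.19 for the fibrillar, 0.14 for the basement membrane, 0.34 for the beaded, 0.61 for the FACIT and 0.38 for the other chains, and no chain outside the fibrillar class passed.

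Both calls are close to the threshold. Col5a3 did not pass without aged obese 12 (adjusted p = 0.05), 15 (0.116) or 17 (0.113), nor without young obese 18 (0.0567), 19 (0.0627), 20 (0.0563), 21 (0.0658), 22 (0.0546) or 23 (0.0600). Col27a1 was at 0.81 ± 0.32 (adjusted p = 0.238) without aged obese 15, and did not pass without aged obese 17 (0.0739), young obese 2 (0.0565), 19 (0.0600), 21 (0.0644), 22 (0.0551) or 23 (0.0539), nor without young obese 1 and 2 together (0.0576). With limma voom and library quality weights the estimates were 0.95 ± 0.35 for Col5a3 (adjusted p = 0.0548) and 0.45 ± 0.32 for Col27a1 (adjusted p = 0.317), and 6 other chains passed (18.2% of the 33, against 19.9% of all tested genes in that fit). Without aged obese 10 and 12 both passed, at 1.70 ± 0.48 for Col5a3 (adjusted p = 0.0203) and 1.58 ± 0.40 for Col27a1 (adjusted p = 0.0119), together with Col8a2, Col18a1 and Col20a1. Those 5 are 15.2% of the 33 chains, against 18.3% of all genes tested without the 2 libraries.

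Of 8 mural cell markers, 7 were tested and 2, Cspg4 (2.04 ± 0.47, adjusted p = 0.0223) and Pdgfrb (0.56 ± 0.15, adjusted p = 0.0419), rose in the same comparison, against 1.87% of all tested genes. The 8 markers summed to 3720 to 7938 CPM in aged obese and 4681 to 6231 CPM in young obese libraries, of which most was Acta2, and the pericyte markers Rgs5 and Kcnj8 had at most 4.66 and 0.237 CPM. Against young lean cells Cspg4 (1.5 ± 0.47, adjusted p = 0.0378), Pdgfrb (0.52 ± 0.15, adjusted p = 0.0281) and Myh11 (1.2 ± 0.39, adjusted p = 0.0467) rose, against 5.62% of all tested genes. The 8 markers summed to 3055 to 6020 CPM in young lean libraries. Their part in the rise of Col5a3 and Col27a1 was not tested. Of 6 osteoblast markers 3 were tested, of which Alpl (1.79 ± 0.41, adjusted p = 0.0151) and Sp7 (1.23 ± 0.30, adjusted p = 0.0201) rose in young obese against young lean cells and Runx2 (1.15 ± 0.27, adjusted p = 0.0103) in aged obese against young lean cells. Of all tested genes, 3.46% were called higher in the former comparison and 5.62% in the latter. The 6 osteoblast markers summed to 50.4 to 217 CPM in aged obese and 36.1 to 122 CPM in aged lean libraries. Their sums were 67.9 to 263 CPM in young obese and 49.3 to 86.2 CPM in young lean libraries. Bglap, Ibsp and Dmp1 had group medians under 0.1 CPM in all groups. Of the progenitor, endothelial, immune, chondrocyte, Schwann cell, epithelial and adipocyte lists, no tested marker passed in edgeR, and the sums of the endothelial, immune, Schwann cell, epithelial and adipocyte lists reached at most 20.1, 7.49, 6.71, 2.76 and 25.8 CPM in any library.

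In aged obese against young lean cells, which differ in both age and diet, Col27a1 rose and Col6a4 fell. These 2 of 33 chains, 1 in each direction, stand against 10.3% of all tested genes in either direction, 5.62% higher and 4.65% lower. Col27a1 was 1.32 ± 0.36 higher, 2.50-fold (adjusted p = 0.0209), with 5 of 6 aged obese libraries above the young lean median, and without aged obese 15 it was 0.75 ± 0.32 higher (adjusted p = 0.15). Col6a4 was -1.05 ± 0.33 on the log2 scale (adjusted p = 0.0398), with 6 of 6 aged obese libraries below the young lean median. It did not pass without aged obese 10 (adjusted p = 0.0757), 12 (0.0708), 14 (0.0548), 15 (0.0519) or 17 (0.0935), or without aged obese 10 and 12 together. Col6a4 also did not pass without young lean 7 (0.0631), 26 (0.0692), 27 (0.0515) or the library with the highest Col6a4 level (0.0867), and its counts were among the lowest tested.

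Col5a3 (1.15 ± 0.43, adjusted p = 0.0777) and Col6a3 (0.55 ± 0.21, adjusted p = 0.0794) missed the threshold in that comparison and passed in DESeq2, which called 4 chains (12.1%, against 14.4% of all tested genes). Without aged obese 10 and 12, Col6a3 was at 0.05 ± 0.17 (adjusted p = 0.87). In 25 of 33 chains the estimate was positive, with a median of 0.20, against a median of -0.01 over all tested genes. The comparisons of aged obese cells share the same 6 libraries, so their values are not independent of each other.

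**Figure D5:**
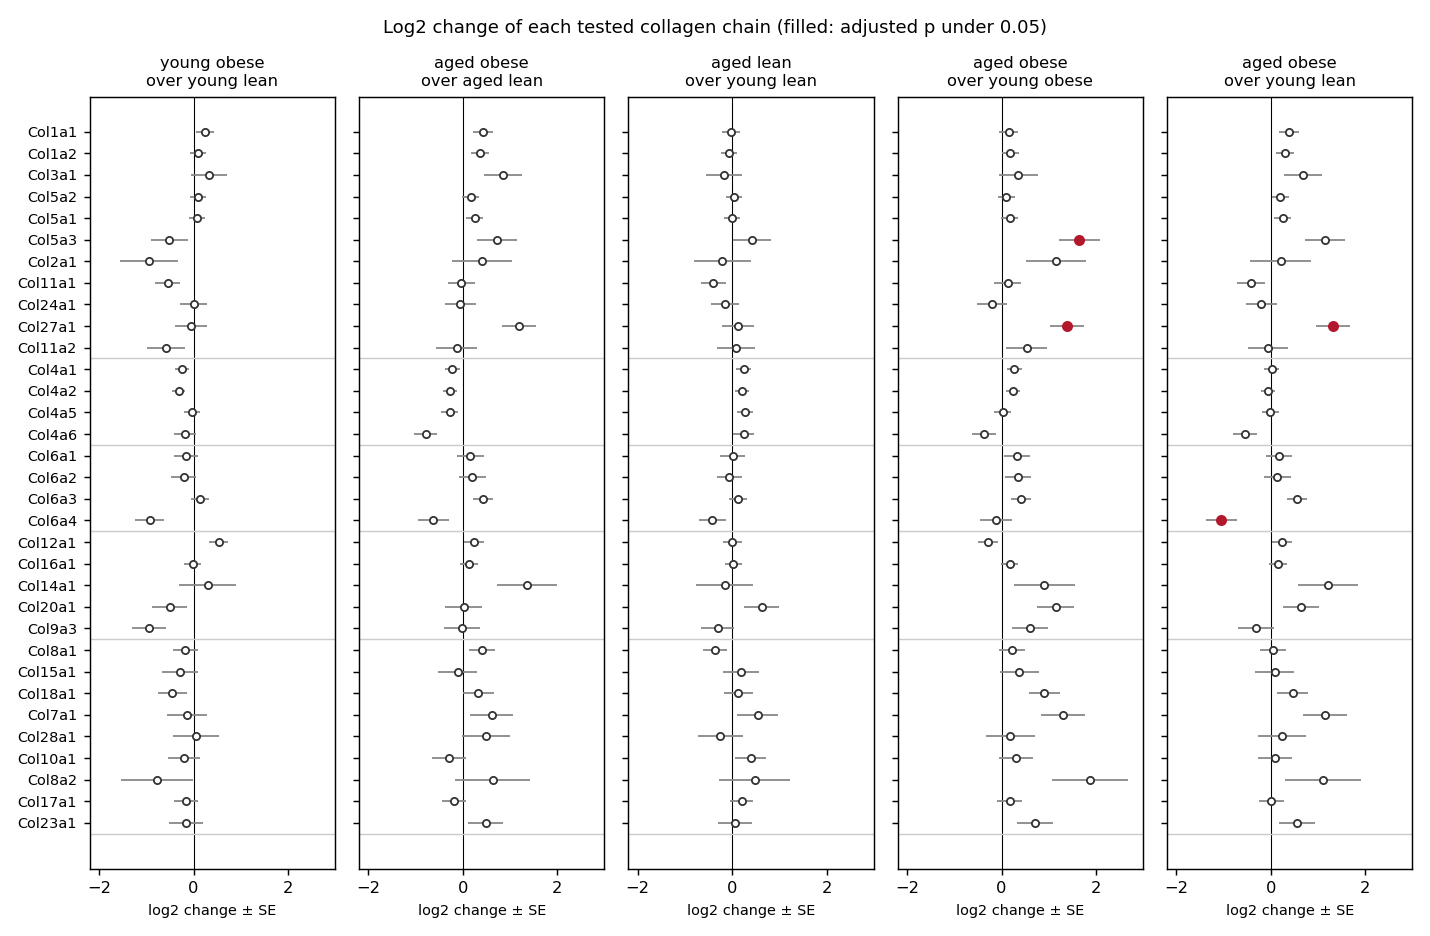
Log2 change with its SE for each tested collagen chain, by class, in 5 comparisons of 2 groups, with filled points at an adjusted p under 0.05 (edgeR). Filled points are Col5a3 and Col27a1 for aged obese over young obese, and Col27a1 and Col6a4 for aged obese over young lean.

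In young obese against young lean cells, the effect of diet in young mice, no collagen chain passed, against 8.83% of all tested genes in either direction, 3.46% higher and 5.37% lower. The smallest adjusted p was 0.0511, for Col6a4 (-0.93 ± 0.30), and 5 of 33 chains had an unadjusted p under 0.05 in edgeR. Without aged obese 10 and 12, which are in neither of these groups but share the fit, Col6a4 passed at -0.92 ± 0.31 (adjusted p = 0.0485). DESeq2 called 0 chains and limma voom with quality weights called 6, namely Col11a1, Col18a1, Col4a1, Col4a2 and Col4a5 as lower and Col12a1 as higher. Those 6 are 18.2% of the 33 chains, against 29.5% of all tested genes that limma voom called there. The median estimate of the 33 chains was -0.16, against -0.02 for all tested genes, with 10 of 33 positive. All 4 basement membrane chains had negative estimates, from -0.31 to -0.03.

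In aged obese against aged lean cells no chain passed in edgeR, DESeq2 or limma voom, against 0.222% of all tested genes in edgeR in either direction and 0.0554% lower. The smallest adjusted p was 0.145, for Col27a1 (1.2 ± 0.36), and 5 chains had an unadjusted p under 0.05 in edgeR, 7 in DESeq2 and 6 in limma voom. The median was 0.20, against 0.01 over all tested genes, with 8 of 11 fibrillar chains positive and all 4 basement membrane chains negative (-0.79 to -0.22). Without aged lean 16, the library with 551 CPM of Col5a3, Col5a3 (1.36 ± 0.35, adjusted p = 0.0307) and Col27a1 (1.34 ± 0.37, adjusted p = 0.044) passed, and without aged obese 16 Col27a1 passed (1.41 ± 0.32, adjusted p = 0.0223).

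In aged lean against young lean cells 0 of 33 chains passed, as did 0 of 14438 genes (0% called). An unadjusted p under 0.05 was reached by 0 chains in edgeR and DESeq2 and by 2 in limma voom, and DESeq2 and limma voom called 0 chains. The estimates lay between -0.42 and 0.63 with a median of 0.03, against -0.02 over all tested genes. The difference of the diet effect between aged and young mice was tested as an interaction, in which 0 chains passed in edgeR, DESeq2 or limma voom, against 0.00693% of all genes in edgeR. Col27a1 (1.26 ± 0.49, adjusted p = 0.598) and Col5a3 (1.23 ± 0.59, adjusted p = 0.621) were the 2 chains with an unadjusted p under 0.05 in edgeR (2 in DESeq2 and 8 in limma voom), and 27 of 33 estimates were positive with a median of 0.32 (0.02 over all tested genes).

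In none of the 5 comparisons of 2 groups did all libraries of a group lie apart from all of the other for any of the 33 chains. Of all tested genes, 1.61% did so between young obese and young lean, 0.187% between aged obese and aged lean, 0.00693% between aged lean and young lean, 1.18% between aged obese and young obese, and 1.04% between aged obese and young lean libraries.

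Collagen chains need enzymes and chaperones in the endoplasmic reticulum, cargo receptors for export and proteinases that trim their ends. Of 18 genes of modification and folding, 17 were tested and 0 passed in any of the 6 comparisons in edgeR, which called 0% to 10.3% of all tested genes. The collagen chaperone Serpinh1 and the prolyl hydroxylase subunit P4hb, chosen after their values were seen as the 2 with the highest levels, had 4254 to 6755 and 2315 to 4443 CPM in aged obese, 4139 to 4977 and 2358 to 4046 CPM in aged lean, 3466 to 6116 and 2473 to 3838 CPM in young obese and 3183 to 6243 and 2762 to 3823 CPM in young lean libraries. Unadjusted p was under 0.05 for 2 of the 17 in young obese against young lean, 1 in aged obese against aged lean, 2 in aged obese against young lean and 0 in the other comparisons.

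Of 12 genes of export and maturation, 11 were tested, and 2 rose in young obese against young lean cells. In aged obese cells 1 rose against young obese and 2 against young lean cells. Over all tested genes 3.46%, 1.87% and 5.62% rose in these 3 comparisons, in the same order. Mia3, also called TANGO1, and its relative Mia2 help load procollagen into transport carriers. Mia2 had 76.4 to 86.5 CPM in young obese and 47.4 to 79.3 CPM in young lean libraries (0.29 ± 0.08, adjusted p = 0.0246), and Mia3 had 163 to 239 CPM in young obese and 137 to 192 CPM in young lean libraries (0.26 ± 0.07, adjusted p = 0.0337). Without young obese 1 and 2 the adjusted p was 0.064 for Mia2 and 0.126 for Mia3, and in a fit that also corrected for GC content and length it was 0.0859 and 0.056. Mia2 also missed the threshold without young lean 26 (0.0543) or 27 (0.0548), and Mia3 without young obese 1 (0.0772) or 2 (0.0663) or young lean 7 (0.0628), 26 (0.0869) or 27 (0.0665).

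Adamts3, a procollagen N-proteinase, rose in aged obese cells against both young groups. It had 1.59 to 10.1 CPM in aged obese libraries (median 3.25). Young obese libraries had 0.647 to 3.06 CPM (0.958), young lean 0.977 to 3.52 CPM and aged lean 0.173 to 1.68 CPM (1.21). Against aged lean cells the estimate was 1.96 ± 0.45, which missed the threshold (adjusted p = 0.0519). Adamts3 was 1.64 ± 0.44 higher than in young obese cells (adjusted p = 0.0409) and 1.61 ± 0.44 higher than in young lean cells (adjusted p = 0.0214). Leaving out aged obese 14 gave 1.2 ± 0.43 (adjusted p = 0.137) and 1.16 ± 0.43 (0.0754), and without aged obese 15 the adjusted p was 0.12 and 0.059. Against young obese cells it also missed the threshold without any of young obese 18 to 23 (adjusted p from 0.0621 to 0.0757). Creb3l1, a transcription factor that acts on type I collagen genes in bone, had 167 to 454 CPM in aged obese and 121 to 209 CPM in young lean libraries (0.72 ± 0.21, adjusted p = 0.0313), with an adjusted p of 0.126 or 0.0954 once aged obese 15 or 17 was left out, and of 0.0632 or 0.0531 once young lean 26 or 27 was.

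All 8 genes of collagen receptors and uptake were tested. Of these, 2 rose in young obese and 1 in aged obese cells against young lean cells, where 3.46% and 5.62% of all tested genes rose. The beta1 integrin Itgb1, the shared subunit of the collagen-binding integrins, had 1469 to 1725 CPM in aged obese (median 1621), 1159 to 1639 in aged lean (1378), 1296 to 1649 in young obese (1540) and 1014 to 1444 in young lean libraries (1318). It was 0.34 ± 0.08 higher in aged obese than in young lean cells (adjusted p = 0.0124) and passed with each of the 30 libraries left out, and 0.26 ± 0.08 higher in young obese than in young lean cells (adjusted p = 0.0347). Itga1, an integrin chain that binds type IV and type I collagen, had 15.7 to 84.2 CPM in young obese and 15.8 to 35.6 CPM in young lean libraries (0.88 ± 0.27, adjusted p = 0.0422). Without young obese 1 and 2 the adjusted p in young obese against young lean cells was 0.112 for Itgb1 and 0.198 for Itga1. Singly, Itgb1 missed the threshold there without young obese 1 or 2 or young lean 7, 26 or 27 (0.0614 to 0.0852), and Itga1 without young obese 1, 2, 20 or 21 or young lean 7, 23, 26 or 27 (0.0524 to 0.0992). The remaining 6 receptors, among them the discoidin receptors Ddr1 and Ddr2, passed in no comparison in edgeR.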

How the data were processed

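Reads from 30 libraries were aligned with STAR and counted per gene with HTSeq 0.7.0, and DESeq2 1.12.4 was used by the authors, per the submitters' processing notes. The deposited values are unnormalised counts per gene. The genome build, annotation, STAR version and strand setting are not given in the sources used here. The 5 lines that name no gene entered neither library sizes nor tests. Genes passing edgeR's filter on low counts (14438) were scaled by TMM and fitted with edgeR 4.0.16's quasi-likelihood model, with a term for each of 4 groups over all 30 libraries. The 6 comparisons (5 of 2 groups and the interaction) were adjusted over all tested genes (Benjamini-Hochberg, threshold 0.05). CPM were computed here from the scaled library sizes, with 0.1 CPM added before logs in SDs and ratios. Transcript length is that of the longest coding transcript in GENCODE M21. Alternatives used DESeq2 1.42.0 and limma 3.58.1 in R 4.3.3, other scaling, no filter, a GC and length offset, only the groups compared, a replicate block and libraries left out. The scripts were tested on simulated data.

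The collagen members and the pathway and marker lists were chosen with earlier results of these data known. Chains are named with values where called in edgeR, where among the 2 highest per length of their class or the 3 most variable within groups, or where part of a trimer whose ratio is given. Of each pathway list, called members are named. No batch is given in the labels.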

Additional observations from a re-analysis of the deposited data

Results flagged for a closer look

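For 22 collagen chains in each of 4 groups, the gap in log2 CPM of the highest or lowest library to its neighbour was divided by the range of the group. In 13 of the 88 groups the ratio exceeded Dixon's 95% critical value. Chance gives about 1 in 20 for independent groups not chosen by their values. Here the chains share libraries, and some were named for their spread or after their values were seen. Young obese 22 was the low library in 9 of the 13. Its ratio was 0.676 for Col1a1 (12155 CPM), 0.714 for Col1a2 (7454 CPM), 0.75 for Col5a1 (1787 CPM), 0.734 for Col5a2 (2173 CPM), 0.57 for Col6a1 (589.8 CPM), 0.588 for Col6a2 (451 CPM), 0.567 for Col6a3 (953 CPM), 0.692 for Col12a1 (1008 CPM) and 0.567 for Col8a2 (0.258 CPM). These chains share 1 library and are not independent.

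Aged obese 10 was low in Col5a2 (ratio 0.634, 3323 CPM). Aged lean 16 was high in Col5a3 (0.585, 551 CPM), young obese 23 in Col4a2 (0.578, 1201 CPM) and 1 young lean library in Col28a1 (0.77, 25.8 CPM).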

How the results depend on the processing

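None of the genes called in edgeR changed direction under any alternative run. The median over the chains, which has no test, changed sign in young obese against young lean cells (with the replicate block, below) and in aged lean against young lean cells, where it was 0.03, and -0.05 with limma voom, -0.02 with the correction for GC content and length and -0.06 and -0.02 without aged lean 15 and 16. Each called gene was checked in each alternative run of its comparison, and the call was kept in 367 of these cases and lost in 92. Counts of chains called and medians over the chains were scored as the same in 419 cases and as moved in 39. Small shifts were scored as the same. An example is the median in aged obese against young obese cells, at 0.18 to 0.44 with single libraries left out.

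With limma voom and quality weights, 6 chains passed in young obese against young lean cells (0 in edgeR), 6 in aged obese against young obese cells (2 in edgeR) and 0 in aged obese against young lean cells (2 in edgeR). That fit called 29.5%, 19.9% and 4.81% of all tested genes in these comparisons, in the same order. In that last comparison DESeq2 called 4 chains, adding Col5a3 and Col6a3, and without the filter on low counts 1 passed. These settings called 14.4% and 4.06% of all tested genes there. Fitting only the groups compared called 0 of 32 chains in both comparisons with calls, and Col6a4 could not be tested there because it missed the filter. That setting called 1.31% of all tested genes in aged obese against young obese and 2.96% in aged obese against young lean cells. Without aged obese 10 and 12, 1 chain passed in young obese against young lean, 5 in aged obese against young obese and 1 in aged obese against young lean cells, where it called 12.6%, 18.3% and 10.3% of all genes tested. Correcting for GC content and length called 1 chain, Col4a6, in aged obese against aged lean cells (-0.86 ± 0.21, adjusted p = 0.0458), and 3 in aged obese against young lean cells, again with Col4a6 (-0.65 ± 0.20, adjusted p = 0.0382). It called 0.525% and 11.4% of all tested genes there.

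Leaving out each of the 30 libraries called 0 to 1 chains in young obese against young lean cells, 0 to 2 in aged obese against aged lean, 0 to 0 in aged lean against young lean, 0 to 4 in aged obese against young obese, 0 to 5 for aged obese over young lean cells, and 0 to 0 for the interaction. The counts of 4 and 5 came without aged obese 10 and without aged obese 16, and without aged obese 15 both fell to 0. Over all tested genes, the calls against young obese cells were 693 without aged obese 10 and 43 without 15 (443 with all libraries). Against young lean cells they were 2405 without aged obese 16 and 642 without 15 (1483 with all libraries). The 2 chains in aged obese against aged lean cells came without aged lean 16, where 435 of all tested genes passed (32 with all libraries). In aged obese against young obese cells the count of chains was also 0 without aged obese 17 or young obese 19, 21, 22 or 23. Each of these fits called 159 to 371 of all tested genes. The cause was not tested.

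Some mouse numbers recur between groups, and the fit with a replicate block kept only libraries whose number recurs. These were numbers 1 and 23 in the young groups and 12, 15, 16 and 17 in the aged groups. That fit called 0 chains, and 0 of all 13820 tested genes in the young and 0 of 13864 in the aged groups. The median of the chains was 0.35 in young obese against young lean cells (-0.16 in the fit over all libraries) and 0.25 in aged obese against aged lean cells. The numbers were read here as naming individual mice and not as pairs. Deviations of same-numbered libraries correlated from -0.56 to 0.43, which does not decide whether they are paired. Low counts limit Col6a4 (2 to 33 per library).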
